A study of Homo sapiens with 60 samples.

Results

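Of 60 libraries from HepG2 cells, 6 are described here: 3 libraries from cells treated for 24 h with 500 ug/mL of the 70% ethanol extract of Guibi-tang, and 3 libraries from cells treated for 24 h with 20 ug/mL of the same extract. They were chosen by the decoction and the dose in their labels. HepG2 is an established human hepatocellular carcinoma line that keeps many hepatocyte functions, so its responses are those of 1 tumour line in culture and not those of liver tissue. Guibi-tang is a decoction of East Asian herbal medicine made from many herbs, with Polygala root and Aucklandia root among them. The whole study exposed the same line to 70% ethanol extracts of 8 herbs or decoctions at 3 doses each, or to vehicle, and sequenced messenger RNA in 25 groups. Vehicle, 20, 100 and 500 ug/mL of Guibi-tang had 3 libraries each. Vehicle was 0.1% DMSO in the labels and 2% DMSO in the design text. All libraries are labelled as batch D. The first part of the sample codes, called the set here, was 13 for all Guibi-tang libraries and another for vehicle. What it stands for is not given in the labels. The 500 ug/mL dose was the highest that the design used, and an extract whose concentration for 20% inhibition lay under it was given at that lower concentration.

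Plant extracts reach hepatocytes as mixtures of small molecules, and several sensor systems answer them. The aryl hydrocarbon receptor (AHR) binds planar aromatic compounds and switches on cytochrome P450 genes, with CYP1A1 as its classical target. NRF2 is held inactive by KEAP1 until electrophiles or oxidants modify KEAP1, and then raises genes for antioxidant and detoxifying enzymes. SREBP factors drive the genes of sterol and fatty acid synthesis when sterols are low, PPARA and CREB3L3 drive genes of fatty acid use, and MTF1 drives metallothioneins when zinc is abundant.

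Promoter sequences are shown first for genes whose levels the results turn on and that answer to the first 2 of these systems or to MTF1. They come from RefSeq on GRCh38.p14, run 5′ to 3′ in the direction of the gene, and span 250 bases before to 50 bases after the start. Capitals mark matches to the core of the response element of each factor on either strand: GCGTG for AHR, TGACNNNGC for NRF2, and TGCACNC or TGCGCNC for MTF1. Of 35116 RefSeq promoters of the same 300 bases, 36.5% held the first core, 13.3% the second and 29.6% the third. The metallothionein promoters were chosen after their values were seen.
CYP1A1, chr15:74725479-74725778, minus strand: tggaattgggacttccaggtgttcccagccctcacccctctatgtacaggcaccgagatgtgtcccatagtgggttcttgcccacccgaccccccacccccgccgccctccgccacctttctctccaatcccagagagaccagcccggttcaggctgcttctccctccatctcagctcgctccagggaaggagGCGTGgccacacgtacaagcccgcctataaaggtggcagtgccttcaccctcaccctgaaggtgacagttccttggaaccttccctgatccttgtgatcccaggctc
AKR1C2, chr10:5003808-5004107, minus strand: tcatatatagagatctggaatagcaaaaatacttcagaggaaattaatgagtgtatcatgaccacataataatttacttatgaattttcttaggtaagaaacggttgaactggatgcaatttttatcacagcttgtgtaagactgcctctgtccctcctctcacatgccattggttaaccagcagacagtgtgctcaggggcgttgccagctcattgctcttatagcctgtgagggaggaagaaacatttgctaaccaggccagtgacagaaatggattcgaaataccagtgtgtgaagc
AKR1C1, chr10:4963165-4963464, plus strand: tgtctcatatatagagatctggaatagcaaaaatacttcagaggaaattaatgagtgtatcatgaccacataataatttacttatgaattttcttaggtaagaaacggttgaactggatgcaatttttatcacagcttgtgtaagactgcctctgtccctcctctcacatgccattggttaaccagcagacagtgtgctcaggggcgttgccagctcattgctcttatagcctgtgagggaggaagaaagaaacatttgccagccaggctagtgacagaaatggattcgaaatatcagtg
OSGIN1, chr16:83952990-83953289, plus strand: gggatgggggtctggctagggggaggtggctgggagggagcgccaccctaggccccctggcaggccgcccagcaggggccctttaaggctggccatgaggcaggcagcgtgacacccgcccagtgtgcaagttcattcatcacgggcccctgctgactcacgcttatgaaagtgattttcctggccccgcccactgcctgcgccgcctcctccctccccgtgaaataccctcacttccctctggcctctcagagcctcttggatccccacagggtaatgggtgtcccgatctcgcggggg
MT1X, chr16:56682220-56682519, plus strand: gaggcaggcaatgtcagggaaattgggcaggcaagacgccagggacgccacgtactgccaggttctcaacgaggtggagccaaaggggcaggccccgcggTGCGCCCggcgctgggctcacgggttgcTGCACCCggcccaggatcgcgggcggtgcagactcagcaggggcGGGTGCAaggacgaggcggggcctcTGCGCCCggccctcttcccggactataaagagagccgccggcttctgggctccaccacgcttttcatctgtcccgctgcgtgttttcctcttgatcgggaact
MT2A, chr16:56608334-56608633, plus strand: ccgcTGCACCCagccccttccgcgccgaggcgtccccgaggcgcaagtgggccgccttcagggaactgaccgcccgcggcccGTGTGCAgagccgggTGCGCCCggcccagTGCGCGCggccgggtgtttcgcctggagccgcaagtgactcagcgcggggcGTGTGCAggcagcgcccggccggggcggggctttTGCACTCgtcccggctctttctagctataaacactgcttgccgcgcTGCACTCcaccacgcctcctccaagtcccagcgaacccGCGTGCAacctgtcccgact
The CYP1A1 window held 1 AHR core, at -57 from the start. The windows of AKR1C2, AKR1C1 and OSGIN1 held no NRF2 core, and the AKR1C2 and AKR1C1 windows shared an unbroken run of 245 bases. The MT1X window held 4 MTF1 cores and the MT2A window 8. Over the lists used below, 7 of 9 AHR targets with a promoter in the table, 4 of 18 NRF2 targets and 3 of 5 genes of metallothioneins and zinc transport held the core of their factor. Bases outside these 300 were not searched, so a window without a core does not show that the gene lacks one. These matches are a description of letters and were not tested for binding.

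The libraries held 23.1 M, 21.0 M and 22.8 M counts (M, 1000000) at 500 ug/mL, and 31.1 M, 23.0 M and 27.9 M at 20 ug/mL. Mitochondrially encoded genes took 11.6% to 12.5% of counts at 500 ug/mL and 11.8% to 13.1% at 20 ug/mL. The labels do not say whether the libraries of a dose came from separate cultures. The p-values thus rest on the scatter of libraries within groups, pooled over the 22 fitted groups, and that scatter may be technical. The second library at 500 ug/mL stood apart from the others of its dose: its chi-square per gene against them was 12.5 and 14.3, against 2.47 between those others and 2.76 to 6.05 between the libraries at 20 ug/mL. Its log2 levels, relative to the mean of the fitted libraries, changed by 0.0841 per doubling of transcript length and by -0.0593 per 10 points of GC content. In the other 5 libraries of the 2 doses the length slope was -0.000947 to 0.0154 and the GC slope -0.0419 to 0.0267. Short transcripts thus read lower in that library, and counts of called list members are also given without it where they changed. All 12 hepatocyte identity markers were detected, with summed levels of 36979 to 38379 CPM at 500 ug/mL and 50916 to 52872 CPM at 20 ug/mL, where CPM is counts per 1000000 after TMM scaling. Of markers of other cell types, PTPRC, CD3E, MS4A1, COL1A2, DCN, KDR, TEK and NKX2-1 had 0 counts in all 6 libraries. The summed markers of blood cells, mostly LYZ, were 660 to 763 CPM at 500 ug/mL and 1186 to 1240 CPM at 20 ug/mL, and those of stroma 40.1 to 45.9 CPM at 500 ug/mL and 56.7 to 64.3 CPM at 20 ug/mL. The endothelial sum was 10.4 to 12.1 CPM at 500 ug/mL and 9.63 to 10.3 CPM at 20 ug/mL, and VIL1, the one lung and gut marker high enough to be tested, had 229 to 244 CPM at 500 ug/mL and 331 to 344 CPM at 20 ug/mL. Their part in the changes below was not tested.

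Raising the dose to 500 ug/mL changed a large share of the expressed genes, mostly by small amounts. Of 16978 genes tested with edgeR's quasi-likelihood test, 5816 (34.3%) had a Benjamini-Hochberg adjusted p under 0.05. Of these, 2854 genes (16.8%) were higher and 2962 (17.4%) were lower at 500 than at 20 ug/mL, and their median absolute log2 fold change was 0.32. Among the called genes, 206 (1.21%) were higher by at least 2-fold and 226 (1.33%) lower by at least 2-fold. In 6976 genes (41.1%) the 3 libraries of one dose all lay above the 3 of the other. Without the second library at 500 ug/mL, 5044 genes were called, and 4593 of the 5816 were among them. Since these are bulk samples, fewer cells of a kind and less RNA per cell cannot be told apart in any of the values that follow.

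**Figure D1:**
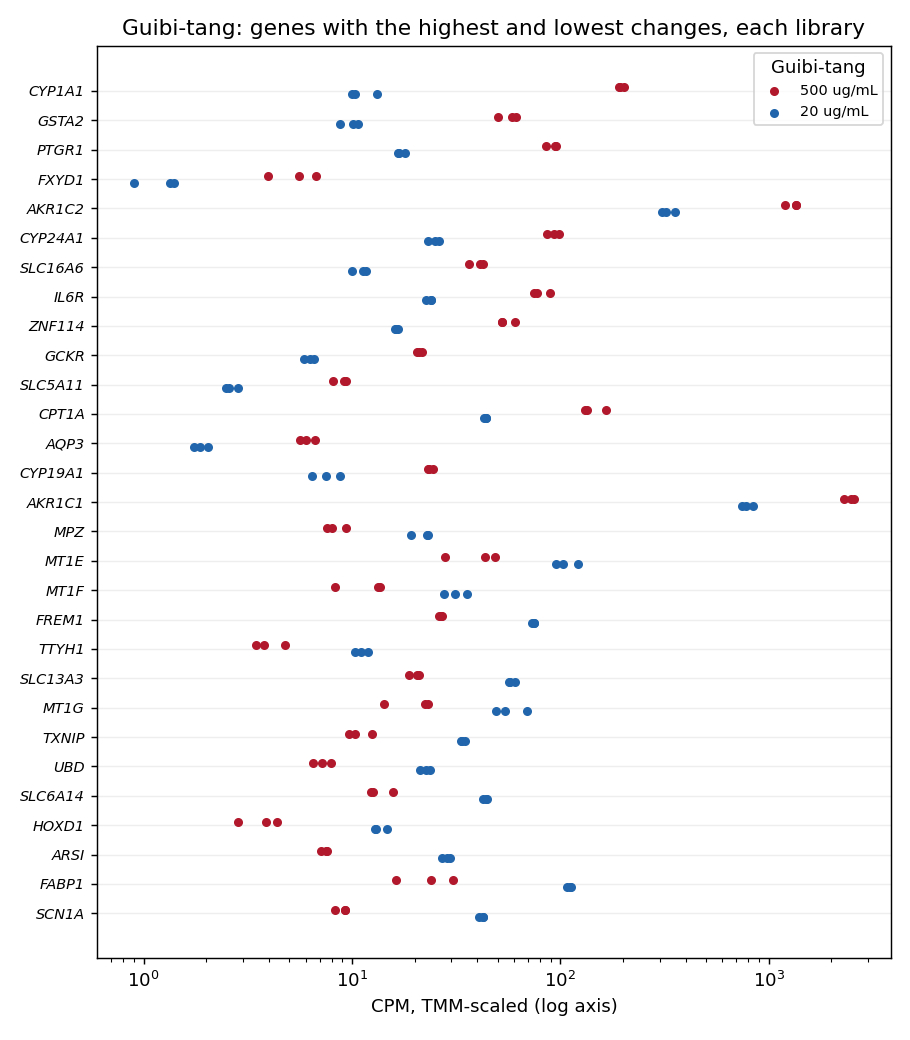
CPM (log axis) of each library at 500 ug/mL (red) and 20 ug/mL (blue) of Guibi-tang for the 15 genes with the highest and 14 of the 15 with the lowest log2 fold change. The genes were picked for groups that do not overlap, from CYP1A1 at the top (191 to 202 CPM at 500 ug/mL, 9.99 to 13.2 CPM at 20 ug/mL) to SCN1A at the foot of the plot (8.34 to 9.28 CPM at 500 ug/mL, 40.6 to 42.8 CPM at 20 ug/mL).

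CYP1A1, a cytochrome P450 that oxidises polycyclic aromatic compounds, rose most of the genes that the naming rule admitted. It lies at chr15:74719542-74725610 on the minus strand and had 202, 191 and 194 CPM at 500 ug/mL, against 13.2, 9.99 and 10.4 CPM at 20 ug/mL. That rule admitted only genes whose doses did not overlap. The log2 fold change was 4.12 ± 0.09 (SE), a 17.4-fold difference with an adjusted p of 2.62e-35 by edgeR. Without the second library at 500 ug/mL it was 4.14. Across vehicle, 20, 100 and 500 ug/mL the mean levels of CYP1A1 were 8.31, 11.2, 29.9 and 196 CPM. The other AHR targets moved far less.

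Of 10 AHR targets tested, CYP1A1 included, 4 rose and none fell, a share near the 34.3% called over all tested genes. The list median was 0.28 against 0.00 over all tested genes. SLC7A5, the light chain of a leucine transporter, had 1054, 1105 and 1051 CPM at 500 ug/mL and 791, 732 and 776 CPM at 20 ug/mL, a log2 fold change of 0.48 ± 0.06. NQO1, a quinone reductase that is also an NRF2 target, had 701, 627 and 725 CPM at 500 ug/mL and 535, 549 and 535 CPM at 20 ug/mL, a log2 fold change of 0.34 ± 0.04. TIPARP, a mono-ADP-ribosyltransferase that restrains the receptor, rose by 0.22 ± 0.06 on the log2 scale. In all 3 genes the doses did not overlap. AHRR, the receptor's repressor, was near the limit of detection, with 1.19, 1.20 and 1.05 CPM at 500 ug/mL and 0.689, 0.916 and 0.823 CPM at 20 ug/mL, and was not called (adjusted p = 0.106 by edgeR). CYP1A2, CYP1B1 and UGT1A6 were too low to be tested. AHRR and these 3 genes were named after their values were seen.

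NRF2 targets rose almost throughout. Of 28 tested, 25 rose and none fell (89.3% called, against 34.3% of all tested genes). Of these, 9 rose by at least 2-fold, and the list median was 0.71. In 24 of the 25 the libraries of the doses did not overlap, as in 5345 of all 5816 called genes. Leaving out the second library at 500 ug/mL, 24 rose, none fell and the median was 0.73. The 3 members not called were PGD and TKT, enzymes of the pentose phosphate pathway, and TRIM16L, with log2 fold changes of 0.08, -0.01 and 0.12. These 3 were named after their values were seen.

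Within the NRF2 list the aldo-keto reductases, which reduce carbonyls on steroids and lipid aldehydes, had the highest fold changes. AKR1C2 (chr10:4987400-5018031, minus strand) had 1353, 1199 and 1356 CPM at 500 ug/mL and 357, 323 and 307 CPM at 20 ug/mL. AKR1C1 had 2476, 2303 and 2581 CPM at 500 ug/mL and 843, 775 and 746 CPM at 20 ug/mL. AKR1B10 had 199, 195 and 202 CPM at 500 ug/mL and 70.1, 65.4 and 64.6 CPM at 20 ug/mL. The log2 fold changes of these 3 genes were 1.99 ± 0.06, 1.64 ± 0.06 and 1.57 ± 0.06. Doses that do not overlap were a condition of naming AKR1C2 and AKR1C1 by rank, and those of AKR1B10 did not overlap either. AKR1C3, a prostaglandin F and steroid reductase, rose by 0.74 ± 0.06 on the log2 scale. The family did not move as a whole: of 10 aldo-keto reductases tested, 5 rose and 4 fell (90.0% called, against 34.3% of all tested genes). The 4 that fell were AKR1A1, AKR1B1, AKR1D1 and AKR7A2 with log2 fold changes of -0.21, -0.29, -0.41 and -0.17. When the second library at 500 ug/mL was left out, 5 rose and 2 fell. AKR1C1 and AKR1C2 are 97.1% identical over 3770 aligned bases of transcript, and AKR1B10 has a close copy in AKR1B15, so the split of reads within each pair is uncertain.

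HMOX1, heme oxygenase, which opens the heme ring, had 127, 121 and 124 CPM at 500 ug/mL and 49.2, 47.8 and 45.9 CPM at 20 ug/mL. All 3 libraries at 500 ug/mL were well above each library at 20 ug/mL, with a log2 fold change of 1.38 ± 0.05 and an adjusted p of 1.81e-26 by edgeR. OSGIN1, an oxidative stress-induced growth inhibitor, had 109, 89.8 and 102 CPM at 500 ug/mL and 45.1, 35.3 and 34.4 CPM at 20 ug/mL (log2 fold change 1.39 ± 0.09), and one transcript of its neighbourhood, AC009119.2, shares exon sequence with it. The thioredoxin and glutathione systems were among the called members: TXNRD1, thioredoxin reductase, rose by 1.15 ± 0.04 and GCLM, the modifier subunit of the enzyme that starts glutathione synthesis, by 1.16 ± 0.05 on the log2 scale. The ferritin chains that store iron rose as well, FTH1 by 0.80 ± 0.06 and FTL by 0.46 ± 0.08. In FTL the second library at 500 ug/mL, with 6378 CPM against 8619 and 9493 CPM in the others of its dose, lay below the first library at 20 ug/mL, with 6635 CPM. The transcript of NRF2 itself, NFE2L2, had 250, 246 and 250 CPM at 500 ug/mL and 255, 248 and 251 CPM at 20 ug/mL and was not called (log2 fold change -0.01 ± 0.04, adjusted p = 0.829 by edgeR). TXNRD1, GCLM, the ferritin chains and NFE2L2 were named after their values were seen.

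Other enzymes of detoxification rose beside them. GSTA2, an alpha-class glutathione transferase abundant in hepatocytes, had 61.2, 50.0 and 58.8 CPM at 500 ug/mL and 10.1, 8.81 and 10.7 CPM at 20 ug/mL. GSTA1 had 197, 155 and 192 CPM at 500 ug/mL and 57.3, 58.1 and 60.2 CPM at 20 ug/mL. Both were higher in all libraries at 500 ug/mL, which for GSTA2 was a condition of its naming by rank. The log2 fold changes were 2.52 ± 0.09 and 1.63 ± 0.07, although the 2 genes are 95.4% identical over 1019 bases and may share reads. The glutathione transferases differed in direction: of 13 tested, 4 rose and 3 fell (53.8% called, against 34.3% of all tested genes). Those that rose were GSTA1, GSTA2, GSTO1 and the microsomal MGST1. Those that fell were all of the mu class, GSTM2, GSTM3 and GSTM4, with log2 fold changes of -0.45, -0.33 and -0.23. GSTM2 overlaps exons of GSTM4 on the same strand, so these 2 values carry the uncertainty of shared reads. GSTM4 lost its call without the second library at 500 ug/mL (-0.11, adjusted p = 0.0958 by edgeR). PTGR1, prostaglandin reductase 1, which also reduces reactive alkenals, had 95.7, 85.3 and 93.9 CPM at 500 ug/mL and 18.0, 16.7 and 16.8 CPM at 20 ug/mL, a 5.33-fold difference.

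Genes known as targets of the drug-sensing receptors PXR and CAR rose in part. Of 15 tested, 8 rose and 1 fell (60.0% called, against 34.3% of all tested genes), and the median was 0.55. SULT2A1, which sulfates bile acids and steroids, had 240, 211 and 238 CPM at 500 ug/mL and 127, 123 and 116 CPM at 20 ug/mL. TSKU rose by 1.01 ± 0.07 on the log2 scale. CYP3A4, the classical PXR target, was barely detected, with 0.0818, 0.223 and 0.422 CPM at 500 ug/mL and 0.197, 0.567 and 0.358 CPM at 20 ug/mL, so a change in it was not detectable at this depth (adjusted p = 0.465 by edgeR). The member that fell was NR1I2, which encodes PXR, with 12.9, 13.8 and 13.6 CPM at 500 ug/mL and 15.8, 17.1 and 14.7 CPM at 20 ug/mL, and it stayed called in 4 of the 6 fits that each left out 1 library. Exporters of conjugates at the 2 poles of the hepatocyte rose: ABCC3 of the basolateral membrane by 1.14 ± 0.05 and ABCC2 of the canalicular membrane by 0.90 ± 0.04 on the log2 scale. Both chains of the basolateral organic solute transporter, SLC51B and SLC51A, rose by 0.80 ± 0.13 and 0.59 ± 0.14, and in the bile acid list 5 of 15 tested members rose and 2 fell (46.7% called, against 34.3% of all tested genes).

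**Figure D2:**
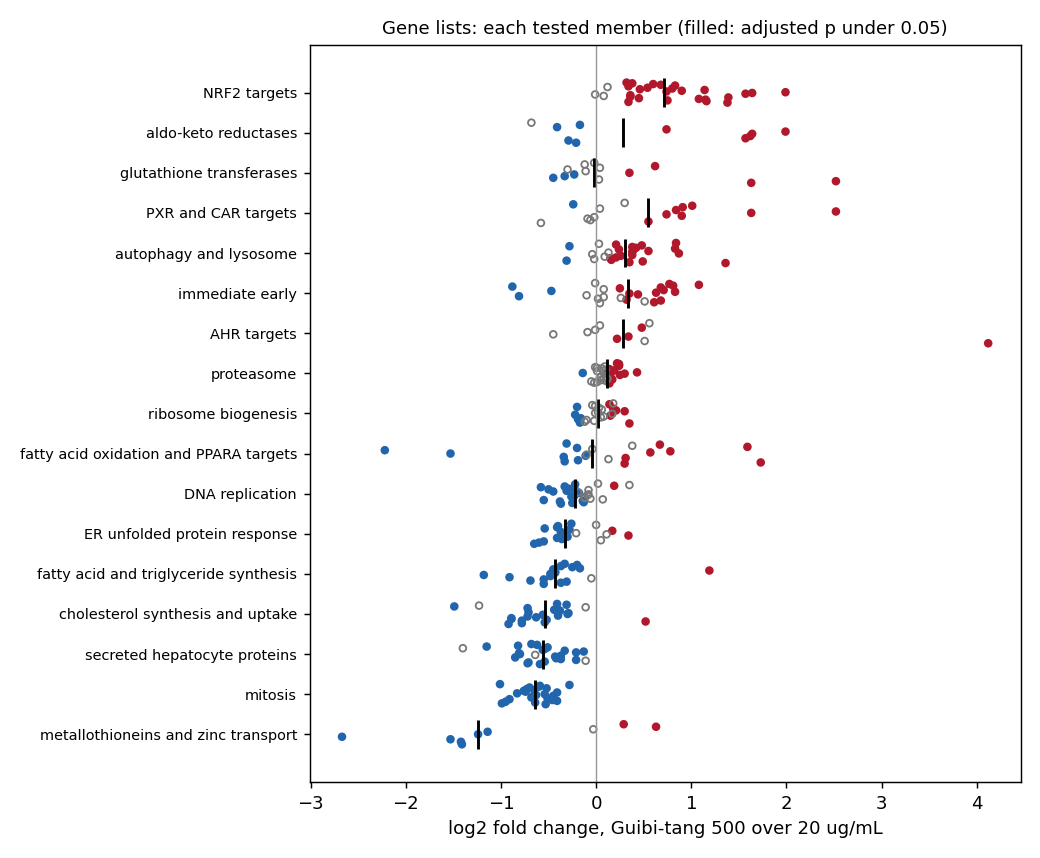
Log2 fold change (x axis, Guibi-tang 500 over 20 ug/mL) of each tested member of 17 gene lists (y axis), filled where the edgeR adjusted p was under 0.05 and open where it was not, with the list median as a black line. The medians run from 0.71 for NRF2 targets to -1.24 for metallothioneins and zinc transport, and all 25 mitosis genes lie left of 0.

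Genes of sterol synthesis fell together. Of 25 genes of cholesterol synthesis and uptake tested, 22 fell and 1 rose (92.0% called, against 34.3% of all tested genes). The median was -0.54, and -0.53 without the second library at 500 ug/mL. HMGCS1, which makes the precursor of mevalonate, had 271, 272 and 270 CPM at 500 ug/mL and 495, 523 and 517 CPM at 20 ug/mL. Its libraries of one dose were close together and the doses far apart, with a log2 fold change of -0.92 ± 0.06 and an adjusted p of 3.45e-17 by edgeR. FDPS and FDFT1, the enzymes of the farnesyl branch point, were both lower by 0.89 on the log2 scale (-0.89 ± 0.05 and -0.89 ± 0.04). The member that rose was PMVK, a kinase of the mevalonate pathway, by 0.52 ± 0.11. PMVK was named after its values were seen.

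Fatty acid synthesis fell and parts of fatty acid use rose. In the list of fatty acid and triglyceride synthesis, 17 of 19 tested genes fell and 1 rose (94.7% called, against 34.3% of all tested genes). The median was -0.43, and 16 fell without the second library at 500 ug/mL. FADS2, the delta-6 desaturase, had 116, 121 and 122 CPM at 500 ug/mL and 268, 267 and 277 CPM at 20 ug/mL (log2 fold change -1.18 ± 0.04). FASN, fatty acid synthase, had 1378, 1440 and 1404 CPM at 500 ug/mL and 2364, 2160 and 2272 CPM at 20 ug/mL (log2 fold change -0.69 ± 0.06). ELOVL6 and ACLY fell by 0.91 ± 0.05 and 0.55 ± 0.04. The 1 gene that rose was AGPAT2, an acyltransferase of triglyceride synthesis, by 1.19 ± 0.16, named after its values were seen.

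The list of fatty acid oxidation and PPARA targets was split, with 7 of 19 tested genes higher and 8 lower (78.9% called, against 34.3% of all tested genes). The median was -0.04, and 7 were higher and 7 lower without the second library at 500 ug/mL. CPT1A, which commits fatty acids to mitochondrial import, had 132, 166 and 135 CPM at 500 ug/mL and 43.8, 43.9 and 43.1 CPM at 20 ug/mL. The second library at 500 ug/mL was the highest, and the log2 fold change was 1.73 ± 0.06 with it and 1.62 without it. CREB3L3, a liver transcription factor of the fasting response, had 35.5, 38.9 and 32.6 CPM at 500 ug/mL and 12.4, 10.7 and 12.4 CPM at 20 ug/mL. PLIN2, a coat protein of lipid droplets, rose by 0.78 ± 0.05. FABP1, the fatty acid binding protein of the hepatocyte cytosol, moved the other way, with 23.9, 16.2 and 30.7 CPM at 500 ug/mL and 108, 111 and 112 CPM at 20 ug/mL. Its libraries at 500 ug/mL were spread but lay below those at 20 ug/mL, as its naming by rank required. The log2 fold change of FABP1 was -2.22 ± 0.14, and -2.01 without the second library at 500 ug/mL.

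Genes of glucose sensing also moved in both directions, 3 of 12 tested being higher and 5 lower (66.7% called, against 34.3% of all tested genes). GCKR, which holds glucokinase in the nucleus, had 20.6, 21.0 and 21.8 CPM at 500 ug/mL and 6.56, 6.28 and 5.91 CPM at 20 ug/mL (log2 fold change 1.76 ± 0.08). TXNIP, a thioredoxin-binding arrestin whose gene answers to glucose through ChREBP, had 10.4, 9.72 and 12.5 CPM at 500 ug/mL and 33.8, 33.4 and 34.9 CPM at 20 ug/mL (log2 fold change -1.64 ± 0.09). GPD1 rose by 0.78 ± 0.06 and TKFC fell by 0.30 ± 0.05. Of the same genes 3 rose and 3 fell without the second library at 500 ug/mL. In the list of gluconeogenesis and FOXO targets 7 of 13 rose and 2 fell (69.2% called, against 34.3% of all tested genes). Without that library 4 rose and 1 fell. IGFBP1 rested on the third library at 500 ug/mL: it had 37.4, 39.4 and 74.2 CPM at 500 ug/mL and 27.5 to 32.9 CPM at 20 ug/mL, and its log2 fold change of 0.75 ± 0.22 was 0.37 without that library and no longer called (adjusted p = 0.246 by edgeR).

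Metallothioneins, small cysteine-rich proteins that bind zinc and copper, all fell where they could be tested. MT1G had 23.3, 14.3 and 22.4 CPM at 500 ug/mL and 69.6, 49.1 and 54.0 CPM at 20 ug/mL. MT1X had 17.7, 11.8 and 18.8 CPM at 500 ug/mL and 43.9, 35.8 and 34.4 CPM at 20 ug/mL. MT2A, named after its values were seen, had 93.8, 61.0 and 91.1 CPM at 500 ug/mL and 226, 151 and 164 CPM at 20 ug/mL. In each gene the second library at 500 ug/mL was the lowest and the first at 20 ug/mL the highest. The doses did not overlap, which for MT1G was a condition of its naming by rank. Metallothionein transcripts are short, and short transcripts read lower in that library. The log2 fold changes were -1.53 ± 0.10, -1.24 ± 0.10 and -1.14 ± 0.11, and MT1F and MT1E fell by 1.42 ± 0.11 and 1.41 ± 0.09. Of the 9 tested genes of this list 88.9% were called, against 34.3% of all tested genes. The 6 that fell were the metallothioneins, and the 2 that rose were the zinc importer SLC39A10 (0.63 ± 0.08) and MTF1 (0.29 ± 0.06). The list median was -1.24, and -1.06 without the second library at 500 ug/mL or -1.22 with a correction for GC content and length. MT1E is 95.3% identical to MT1M over 214 bases, so reads may be shared between them.

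Hepatocyte products fell on a broad front. Of 25 genes for proteins that hepatocytes secrete into blood, 22 fell and none rose (88.0% called, against 34.3% of all tested genes). Their median was -0.56. The second library at 500 ug/mL left out, 17 fell and the median was -0.51. ALB, serum albumin, had 6222, 5374 and 6596 CPM at 500 ug/mL and 9406, 9133 and 8867 CPM at 20 ug/mL, a log2 fold change of -0.59 ± 0.05 with an adjusted p of 1.59e-13 by edgeR. FGB, the fibrinogen beta chain, had 215, 195 and 205 CPM at 500 ug/mL and 372, 371 and 363 CPM at 20 ug/mL. ITIH2, an inter-alpha-trypsin inhibitor chain, VTN, vitronectin, and HPX, hemopexin, fell by 0.82 ± 0.04, 0.80 ± 0.05 and 0.81 ± 0.08.

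AFP, the fetal counterpart of albumin, also fell, with 1518, 1330 and 1594 CPM at 500 ug/mL and 3560, 3487 and 3406 CPM at 20 ug/mL (log2 fold change -1.23 ± 0.05). IGF2, a fetal growth factor whose locus has readthrough transcripts, had 974, 1155 and 1102 CPM at 500 ug/mL and 2335, 2033 and 2235 CPM at 20 ug/mL. In the oncofetal list 9 of 14 fell and 1 rose (71.4% called, against 34.3% of all tested genes), or 9 fell and none rose without the second library at 500 ug/mL. Among apolipoproteins and lipoprotein assembly, 8 of 15 fell and 3 rose (73.3% called, against 34.3% of all tested genes), or 7 fell and 3 rose without that library. APOA2, a main protein of HDL, had 1178, 749 and 1207 CPM at 500 ug/mL and 1767, 1702 and 1472 CPM at 20 ug/mL, and its log2 fold change was -0.66 ± 0.08, or -0.46 without the second library at 500 ug/mL, which held the lowest level. LCAT, which esterifies cholesterol on HDL, fell by 0.79 ± 0.07.

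Of 20 transcription factors that set hepatocyte identity, 3 rose and 4 fell, which is 35.0% called, about the 34.3% of all tested genes, and the median was -0.05. FOXA3 had 19.6, 20.0 and 19.8 CPM at 500 ug/mL and 30.5, 27.9 and 29.6 CPM at 20 ug/mL, and FOXA1 fell by 0.48 ± 0.04. Acute phase genes were split, with 3 of 16 higher and 6 lower (56.2% called, against 34.3% of all tested genes). Without the second library at 500 ug/mL, 4 were higher and 4 lower. HAMP, the iron hormone hepcidin, rose by 0.74 ± 0.08 and SAA4, a constitutive serum amyloid A, by 0.83 ± 0.09. CCL20, a chemokine, had 6.58, 5.22 and 9.02 CPM at 500 ug/mL and 14.5, 16.8 and 18.4 CPM at 20 ug/mL, and fell by 1.25 ± 0.15.

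All 25 mitosis genes tested fell (100% called, against 34.3% of all tested genes), and all 25 also fell without the second library at 500 ug/mL. The median was -0.64, and -0.59 without that library. TOP2A, the topoisomerase of dividing cells, had 366, 377 and 379 CPM at 500 ug/mL and 715, 754 and 766 CPM at 20 ug/mL (log2 fold change -0.99 ± 0.05). PLK1, a mitotic kinase, had 146, 132 and 143 CPM at 500 ug/mL and 275, 252 and 262 CPM at 20 ug/mL (log2 fold change -0.91 ± 0.04). MKI67, the Ki-67 proliferation antigen, had 344, 390 and 320 CPM at 500 ug/mL and 515, 501 and 507 CPM at 20 ug/mL (log2 fold change -0.53 ± 0.05). No library at 500 ug/mL reached the lowest at 20 ug/mL in any of the 25 genes, while the doses did not overlap in 41.1% of all tested genes. Of 29 DNA replication genes 18 fell and 1 rose (65.5% called, against 34.3% of all tested genes), or 17 fell and 2 rose without the second library at 500 ug/mL. Their median with all libraries was -0.22. TYMS, thymidylate synthase, and MCM7 of the replicative helicase fell by 0.58 ± 0.05 and 0.55 ± 0.04.

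Among p53 targets 6 of 21 rose and 3 fell, which is 42.9% called, against 34.3% of all tested genes. The list median was -0.01, and 0.07 without the second library at 500 ug/mL. CDKN1A, the cell cycle inhibitor p21, had 128, 106 and 134 CPM at 500 ug/mL and 79.9, 77.3 and 83.5 CPM at 20 ug/mL (log2 fold change 0.61 ± 0.08). GDF15, a stress hormone of the TGF-beta family, had 204, 175 and 237 CPM at 500 ug/mL and 112, 104 and 110 CPM at 20 ug/mL. MDM2, the ubiquitin ligase of p53, rose by 0.37 ± 0.05. Wnt targets were divided, with 5 of 17 higher and 8 lower (76.5% called, against 34.3% of all tested genes). LGR5, a receptor of R-spondins, fell by 0.89 ± 0.06, SP5 by 0.73 ± 0.10 and NKD1 by 0.64 ± 0.05. DKK1, a secreted Wnt inhibitor, fell by 0.93 ± 0.06.

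The chaperone lists held more genes that fell than rose. Of 18 genes of the endoplasmic reticulum unfolded protein response, 12 fell and 2 rose (77.8% called, against 34.3% of all tested genes). Without the second library at 500 ug/mL, 11 fell and 1 rose. HSPA5, the chaperone BiP, had 808, 755 and 826 CPM at 500 ug/mL and 1263, 1223 and 1269 CPM at 20 ug/mL (log2 fold change -0.65 ± 0.04), and HSP90B1 and CALR fell by 0.60 ± 0.04 and 0.55 ± 0.03. Of 18 heat shock genes 8 fell and none rose (44.4% called, against 34.3% of all tested genes). HSPB1 fell by 0.76 ± 0.09, while HSPA1A and HSPA1B, which are 98.6% identical and cannot be separated with certainty, had log2 fold changes of -0.38 and -0.31.

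ATF4 targets gave 4 higher and 9 lower of 24 (54.2% called, against 34.3% of all tested genes). Without the second library at 500 ug/mL, 3 were higher and 7 lower. NUPR1, a stress-induced chromatin protein, had 29.9, 22.9 and 29.6 CPM at 500 ug/mL and 14.1, 12.9 and 11.9 CPM at 20 ug/mL. PHGDH, the first enzyme of serine synthesis, had 77.8, 74.2 and 77.5 CPM at 500 ug/mL and 127, 127 and 132 CPM at 20 ug/mL. TRIB3, a pseudokinase used as an ATF4 readout, was called at -0.22 ± 0.08 (adjusted p = 0.0318 by edgeR), but its doses overlapped and it was not called in 4 of the 6 fits that each left out 1 library. Immediate early genes were mostly higher, 13 of 24 against 3 lower (66.7% called, against 34.3% of all tested genes). KLF6 rose by 0.71 ± 0.06 and CYR61, also named CCN1, by 0.68 ± 0.09, while the related CTGF, also named CCN2, fell by 0.88 ± 0.07.

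Genes of autophagy and the lysosome rose: 19 of 26 were higher and 2 lower (80.8% called, against 34.3% of all tested genes), with a median of 0.31. Without the second library at 500 ug/mL, 22 were higher and 2 lower. SQSTM1, the p62 receptor that carries ubiquitinated cargo to autophagosomes and binds KEAP1, had 511, 497 and 520 CPM at 500 ug/mL and 202, 199 and 194 CPM at 20 ug/mL (log2 fold change 1.36 ± 0.04). CTSB, cathepsin B, had 546, 503 and 567 CPM at 500 ug/mL and 302, 290 and 295 CPM at 20 ug/mL. MCOLN1, a lysosomal calcium channel, rose by 0.83 ± 0.07. The libraries of the 2 doses were apart in all 3 genes. SQSTM1 has antisense neighbours that overlap its exons, and the strand setting of the counting is not given in the sources used here.

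How many proteasome subunits passed the test depended on single libraries. With all libraries 15 of 32 rose, 1 fell and 16 were not called (50.0% called, against 34.3% of all tested genes, median 0.11). Without the second library at 500 ug/mL, 23 rose and none fell (median 0.18). Without the first library at 500 ug/mL, or without the first at 20 ug/mL, 10 were called. PSMC4, an ATPase of the regulatory particle, had 156, 135 and 159 CPM at 500 ug/mL and 113, 112 and 110 CPM at 20 ug/mL. Mitochondrially encoded genes gave 6 of 13 lower and none higher (46.2% called, against 34.3% of all tested genes). Without the second library at 500 ug/mL, 4 were lower. The number called was 10 without a filter on low counts and 3 with the GC and length correction. The nuclear genes of the respiratory chain gave 9 of 32 lower and 1 higher (31.2% called, against 34.3% of all tested genes), or 5 lower and 3 higher without the second library at 500 ug/mL. NDUFB8 of complex I lost its call without that library (-0.24 with it, -0.07 without it).

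Several of the genes with the highest and the lowest fold changes are on none of the lists used here. CYP24A1, which breaks down active vitamin D, had 86.0, 98.2 and 93.3 CPM at 500 ug/mL and 23.3, 25.0 and 26.2 CPM at 20 ug/mL. IL6R, the interleukin 6 receptor, had 74.7, 89.7 and 77.1 CPM at 500 ug/mL and 23.9, 24.0 and 22.8 CPM at 20 ug/mL. CYP19A1, aromatase, had 23.2, 23.5 and 24.5 CPM at 500 ug/mL and 6.46, 8.73 and 7.48 CPM at 20 ug/mL. These 3 genes rose by 1.90 ± 0.07, 1.77 ± 0.05 and 1.66 ± 0.09 on the log2 scale. Doses that do not overlap were a condition of naming them. The solute transporters SLC16A6 and SLC5A11 and the water and glycerol channel AQP3 rose by 1.87, 1.75 and 1.68.

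SCN1A, a voltage-gated sodium channel known from neurons, fell to 9.28, 8.34 and 9.23 CPM at 500 ug/mL, against 40.6, 42.8 and 42.8 CPM at 20 ug/mL (log2 fold change -2.23 ± 0.08). SLC13A3, a dicarboxylate transporter, had 20.6, 18.7 and 21.0 CPM at 500 ug/mL and 57.4, 60.8 and 56.9 CPM at 20 ug/mL. UBD, the ubiquitin-like protein FAT10, had 7.15, 6.47 and 7.97 CPM at 500 ug/mL and 23.7, 22.8 and 21.3 CPM at 20 ug/mL. Here too, doses that do not overlap were a condition of naming these genes. The sulfatase gene ARSI, the homeobox gene HOXD1 and the amino acid transporter SLC6A14 fell by 1.94, 1.87 and 1.68. UBD overlaps GABBR1, SCN1A and HOXD1 overlap antisense genes, and SLC16A6 overlaps ARSG and has a near-identical pseudogene, so these 4 values carry the uncertainty of shared reads.

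Levels at 100 ug/mL, whose libraries entered the estimate of spread but no contrast, placed most of the change in the last step of dose. The doses are spaced by equal ratios, so a level that moved evenly on a log scale would have covered 50% of the log2 distance at 100 ug/mL. All 30 genes named by rank had a mean at 100 ug/mL between those at 20 and 500 ug/mL, and each had covered less than 50% of its log2 distance there, with a median of 32.6% for the 15 highest and 28.1% for the 15 lowest. For CYP1A1 the share was 34.4%, for PTGR1 38.8%, for HMOX1 15.6% and for MT1G 5.96%. Of 4947 called genes with a mean of at least 5 CPM in the higher group, 3575 had a mean at 100 ug/mL between the other doses, and the median share was 20.2%. These shares use the libraries that chose the called genes and are a description.

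The share varied between the lists, without a test. The called NRF2 targets had covered a median of 30.2% of their log2 distance at 100 ug/mL, genes of cholesterol synthesis 11.5% and metallothioneins and zinc transport 15.7%. The proteasome stood at the other end with 64.7%, and NQO1 had covered 97.9%, with 681 CPM at 100 ug/mL. For mitosis genes the median share was -8.15%, meaning that most of them had a higher mean at 100 than at 20 ug/mL. In 7 of the 25 the mean at 100 ug/mL lay between the other doses. TOP2A, 1 of these 7, had mean levels of 630, 745, 711 and 374 CPM across vehicle, 20, 100 and 500 ug/mL. Vehicle was above 20 ug/mL in some genes and below it in others. The vehicle libraries also stood apart in measures that are not gene levels. Their GC slopes were 0.0831 to 0.211 log2 per 10 points, against -0.0593 to 0.0267 in the 9 Guibi-tang libraries, and mitochondrially encoded genes took 15.8% to 19.1% of vehicle counts, against 11.6% to 13.3% in those 9. Treatment and set cannot be told apart between vehicle and Guibi-tang. AKR1C1, for example, had 466, 788, 1170 and 2453 CPM across vehicle, 20, 100 and 500 ug/mL, and HMOX1 57.4, 47.6, 55.3 and 124 CPM.

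**Figure D3:**
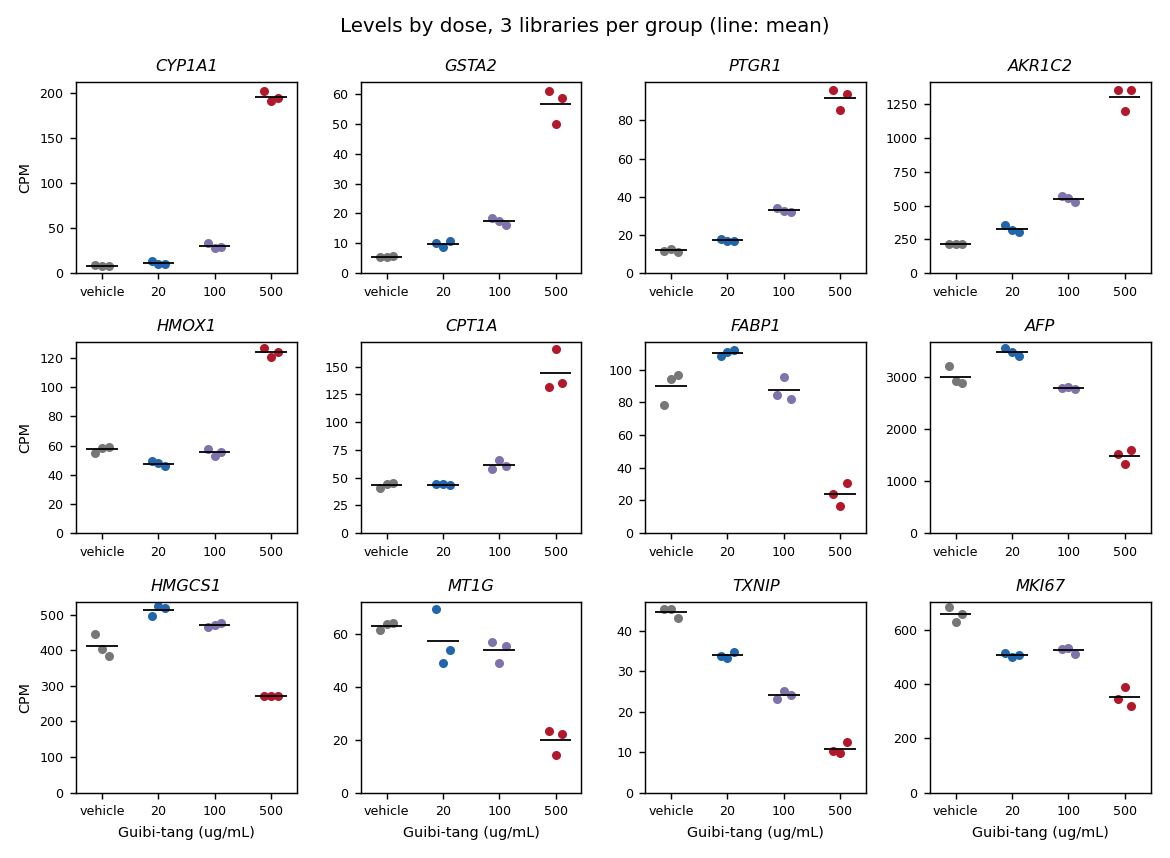
CPM (y axes, from 0) of 12 genes in vehicle and at 20, 100 and 500 ug/mL of Guibi-tang (x axes), 3 libraries per group as points and their mean as a line. In all 12 panels the libraries at 500 ug/mL lie apart from those at the other doses; in MKI67 the libraries at 20 and 100 ug/mL lie close together (means 508 and 525 CPM).

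Other decoctions, 2 in number, were given at the same 3 doses, Saengmaek-san with 3 libraries per dose and Soyo-san with 2, which allowed a test of whether the dose change differed from theirs. Saengmaek-san belongs to the same set as Guibi-tang and Soyo-san to another, so both doses of each decoction share a set. Decoction and set cannot be told apart in the comparison with Soyo-san. The test was the interaction contrast of the same edgeR fit, and it re-used the Guibi-tang libraries by which genes were named. The dose change of Guibi-tang differed from that of Saengmaek-san in 3327 genes (19.6%) and from that of Soyo-san in 2238 genes (13.2%). Of the 30 genes named by rank, 28 differed from Saengmaek-san and 25 from Soyo-san.

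For CYP1A1 the difference passed the test against one of them. Its log2 fold change of 4.12 in Guibi-tang stood beside 2.09 in Saengmaek-san and 3.90 in Soyo-san. By edgeR the difference from Saengmaek-san was 2.03 ± 0.14 (adjusted p = 3.59e-15), and that from Soyo-san was 0.22 ± 0.14 (adjusted p = 0.359), which does not show that the 2 are equal. HMOX1 rose by 1.38 in Guibi-tang, with 0.27 in Saengmaek-san and -0.04 in Soyo-san, and both differences passed the test (1.11 and 1.42). GSTA2 rose by 2.52 in Guibi-tang, against 0.41 in Saengmaek-san and -0.31 in Soyo-san, and PTGR1 rose by 2.41, against 0.16 in Saengmaek-san and 0.47 in Soyo-san. Both genes passed the interaction test against either decoction. FABP1 fell by 2.22 in Guibi-tang, with -0.19 in Saengmaek-san and -0.02 in Soyo-san, and differed by -2.03 and -2.20.

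Over the lists, the NRF2 median of 0.71 stood beside 0.20 in Saengmaek-san and 0.32 in Soyo-san, and the dose change of 21 of the 28 members differed from Saengmaek-san and that of 21 from Soyo-san. The mitosis median was -0.64 in Guibi-tang, 0.05 in Saengmaek-san and -0.10 in Soyo-san, and the dose change of each of the 25 members differed from both. For cholesterol synthesis and uptake the medians were -0.54 in Guibi-tang, -0.08 in Saengmaek-san and -0.41 in Soyo-san, with 23 members differing from Saengmaek-san and 9 from Soyo-san. The secreted hepatocyte proteins had medians of -0.56 in Guibi-tang, 0.00 in Saengmaek-san and -0.17 in Soyo-san. For metallothioneins and zinc transport the medians were -1.24 in Guibi-tang, -1.0 in Saengmaek-san and -1.20 in Soyo-san. In that list 2 of the 9 members differed from Saengmaek-san and 1 from Soyo-san. These counts are near the shares of all tested genes, 19.6% for Saengmaek-san and 13.2% for Soyo-san. MT1E was 1 of the 2 that differed from Saengmaek-san (-0.41, adjusted p = 0.0161 by edgeR). For MT1G the difference was -0.32 from Saengmaek-san (adjusted p = 0.137 by edgeR) and 0.10 from Soyo-san (adjusted p = 0.808).

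**Figure D4:**
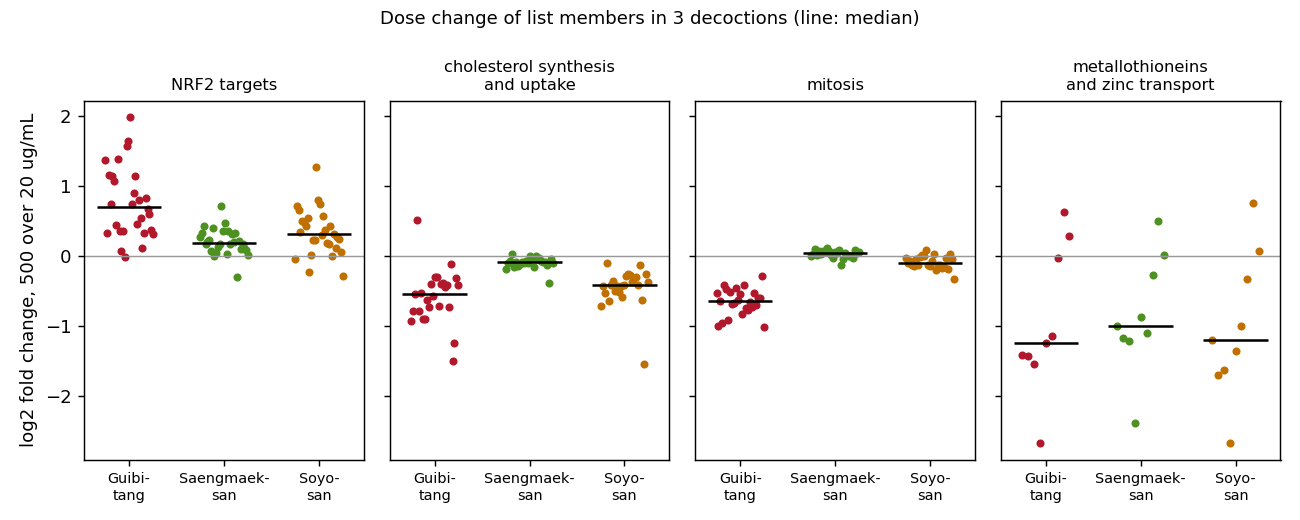
Log2 fold change (y axis, 500 over 20 ug/mL) of each tested member of 4 gene lists in Guibi-tang, Saengmaek-san and Soyo-san, with the list median as a line. The NRF2 median is 0.71 in Guibi-tang, 0.20 in Saengmaek-san and 0.32 in Soyo-san. Mitosis genes have medians of -0.64 in Guibi-tang, 0.05 in Saengmaek-san and -0.10 in Soyo-san, and the metallothionein medians are -1.24 in Guibi-tang, -1.0 in Saengmaek-san and -1.20 in Soyo-san.

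Extracts of 2 herbs that Guibi-tang contains were given at other doses, with 2 libraries per dose. Polygalae Radix was given at 250 and 10 ug/mL and Aucklandiae Radix at 280 and 11.2 ug/mL. By the design described above, these lower top doses were the concentrations of each extract for 20% inhibition. The values of both herbs thus stand beside those of Guibi-tang without a comparison. What part inhibition had in them was not tested. The log2 fold change of CYP1A1 between the highest and lowest dose was 4.12 in Guibi-tang, 3.53 in Polygalae Radix and 0.71 in Aucklandiae Radix. That of PTGR1 was 2.41 in Guibi-tang, -0.95 in Polygalae Radix and 2.39 in Aucklandiae Radix, and that of HMOX1 was 1.38 in Guibi-tang, -1.43 in Polygalae Radix and 3.81 in Aucklandiae Radix. MT1G fell in all 3, by 1.53 in Guibi-tang, 1.72 in Polygalae Radix and 3.10 in Aucklandiae Radix. GSTA2 was higher in Guibi-tang, at 2.52, and had -2.43 in Polygalae Radix and -1.31 in Aucklandiae Radix. FABP1 had -2.17 in Polygalae Radix and -3.10 in Aucklandiae Radix. Mitosis genes also fell at the herbs' concentrations for 20% inhibition, with medians of -0.81 in Polygalae Radix and -0.94 in Aucklandiae Radix. In the same order the medians were -1.85 and -0.52 for secreted hepatocyte proteins, and -1.42 and -0.22 for cholesterol synthesis and uptake. The NRF2 medians were -0.56 and 0.29.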

How the data were processed

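RNA of HepG2 cells was sequenced as 100 bp pairs from a directional kit, and RNA integrity numbers were above 7, per the labels' protocols. The deposited values are expected counts per gene made by the authors, not normalized. Per the submitters' processing notes, FastQC 0.11.9, Trim Galore 0.6.5, STAR 2.7.3a and RSEM 1.3.3 were used with GRCh38. Which annotation release was used, and whether counting used strand, is not given in the sources used here, so genes that overlap on opposite strands are uncertain. Of the values 9.97% were not whole, and all were rounded. Symbols and coordinates came from GENCODE 29, which held 57055 of 60675 IDs; IDs outside it held 0.0459% of counts. Every column of the table was matched to a sample.

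Tests ran in R 4.3.3. Low genes were removed with filterByExpr (minimum count 10), libraries were scaled by TMM, and differences were tested by quasi-likelihood in edgeR 4.0.16. One coefficient per group was fitted to 57 libraries of 22 groups; the decoction with 1 library per dose was left out. The residual degrees of freedom were 35, the common dispersion 0.00217 (4.7% as a coefficient of variation), and p-values were adjusted by Benjamini and Hochberg over 16978 genes. The fit borrows its spread from all groups, and the scripts were tested on simulated data. Fold changes are log2 of 500 over 20 ug/mL with their SE. Libraries of 21.0 M to 31.1 M counts limit the precision of genes under about 1 CPM, as the larger SE of such genes shows.

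Named genes were the 15 highest and 15 lowest log2 fold changes among called genes with a symbol, groups that do not overlap and at least 5 CPM in the higher group; a panel of 8 genes; and up to 4 called members of each of 37 lists. Members named outside this rule, such as the exceptions within a list, were chosen after their values were seen. Values of a few listed genes are not reported here. The members and lists were chosen with earlier results of these data known. Near-identical genes were taken from an alignment of transcripts (at least 95% identity over 200 bases) and overlaps from exons sharing at least 100 bases. Alternatives were RLE scaling, DESeq2 1.42.0, other filters and a fit of the compared groups alone. A GC and length correction, a replicate block and leaving out each library were also run. Same-numbered libraries did not deviate together (correlations 0.14, -0.036 and -0.073).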

Additional observations from a re-analysis of the deposited data

Results flagged for a closer look

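Of the 8 panel genes, 6 had a dose change (500 against 20 ug/mL) in Guibi-tang that differed from that in another decoction by the edgeR interaction test. For CYP1A1, the log2 fold change in Guibi-tang exceeded that in Saengmaek-san by 2.03. For HMOX1 it exceeded that in Saengmaek-san by 1.11 and that in Soyo-san by 1.42. For HMGCS1 the difference from Saengmaek-san was -0.74. For CDKN1A it was 0.65 from Saengmaek-san and 0.37 from Soyo-san, and the second of these lost its call in 7 alternatives, among them leaving out any of 6 single libraries. For MKI67 the differences were -0.54 from Saengmaek-san and -0.51 from Soyo-san, and for ALB -0.62 from Saengmaek-san and -0.42 from Soyo-san. No group holds more than 3 libraries, so no single library was tested against its group.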

How the results depend on the processing

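The counts of called genes stayed within 1.5 times of the reported ones in all alternatives run. Leaving out 1 library at a time gave 5018 to 5386 called genes, 2462 to 2696 higher and 2480 to 2708 lower, where all libraries gave 5816, 2854 and 2962. It gave 2943 to 3331 genes that differed from Saengmaek-san and 1564 to 2296 that differed from Soyo-san, the lowest without the second Soyo-san library at 500 ug/mL. Called genes numbered 5818 with RLE scaling, 5304 with DESeq2, 5348 without a filter, 5714 with a filter at a mean of 1 CPM, 4347 with the compared groups alone and 6500 with the GC and length correction. The replicate block took same-numbered libraries of a set as belonging together, which the labels do not state. It gave 5986 called genes, 3505 that differed from Saengmaek-san and 2374 that differed from Soyo-san. No direction of a named gene between the doses reversed. Differences from Soyo-san that were not called changed sign: for CYP3A4, -0.84 to 0.25 over the left-out libraries, with 0.25 without the first library at 500 ug/mL and 0.22 without the second at 20 ug/mL, and for TRIB3, -0.11 to 0.02, with 0.02 without the second at 500 ug/mL; the cause was not tested. Mitochondrially encoded genes called were 10 without a filter and 3 with the GC and length correction. PFKFB4, BOP1 and MT-ATP8 each lost their call without at least 1 of the libraries.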

Other observations

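The 3 lists not described above were divided. Of 24 hypoxia targets 8 rose and 8 fell (66.7% called, against 34.3% of all tested genes). Without the second library at 500 ug/mL, 8 rose and 5 fell. PFKFB3, which makes the activator of glycolysis fructose 2,6-bisphosphate, had 8.18, 9.76 and 11.5 CPM at 500 ug/mL and 4.66, 3.14 and 3.51 CPM at 20 ug/mL (log2 fold change 1.36 ± 0.15). Its relative PFKFB4 had 9.32, 10.5 and 13.5 CPM at 500 ug/mL and 16.8, 14.7 and 15.2 CPM at 20 ug/mL (log2 fold change -0.49 ± 0.14). NDRG1 rose by 0.79 ± 0.09.

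Of 14 tubulins 3 rose and 8 fell (78.6% called, against 34.3% of all tested genes). Without the second library at 500 ug/mL, 3 rose and 7 fell. TUBA1B, a main alpha chain, fell by 0.58 ± 0.05 and TUBB, a main beta chain, by 0.38 ± 0.04. The beta chains TUBB6 and TUBB2A rose by 0.57 ± 0.07 and 0.43 ± 0.08. TUBB2A is 98.3% identical to TUBB2B, TUBB 97.4% to TUBBP1 and TUBA1B 95.9% to TUBAP2, so reads may be shared within these pairs. Of 24 genes of ribosome biogenesis 6 rose and 5 fell (45.8% called, against 34.3% of all tested genes), or 7 rose and 5 fell without that library. MYC had 208, 193 and 208 CPM at 500 ug/mL and 164, 155 and 160 CPM at 20 ug/mL. LYZ, lysozyme, had 622, 610 and 707 CPM at 500 ug/mL and 1150, 1188 and 1209 CPM at 20 ug/mL, and its libraries did not overlap between the doses.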
